A study of Mus musculus with 7 samples.

Results

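The small leucine-rich proteoglycans are secreted matrix proteins built around a chain of leucine-rich repeats. The 10 genes described here were chosen by gene symbol, as the decorin, biglycan, lumican and osteoglycin relatives of classes I to III, and with earlier results of these same tumors known, so the comparison of resistant with parental tumors is given below as a description of the family and not as independent support for a direction. All 10 were found among the 53465 genes of the table: Dcn, Bgn and Aspn of class I, Fmod, Lum, Prelp, Omd and Kera of class II, and Ogn and Epyc of class III. Dcn, Lum, Fmod, Ogn, Prelp, Aspn and Omd also stand in a list of secretory genes that the study assembled from these samples.

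These proteins bind fibrillar collagens and help to set the diameter and spacing of fibrils. Several also bind growth factors, above all members of the transforming growth factor β (TGFβ) family, and soluble biglycan and decorin can engage Toll-like receptors on macrophages. In carcinomas their transcripts are usually attributed to fibroblasts of the stroma. Class I members other than asporin carry chondroitin or dermatan sulfate chains, whereas most class II members carry keratan sulfate.

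RNA was sequenced from bulk tumor tissue of EMT6, a mouse mammary carcinoma line of Balb/c origin, so reads of the carcinoma cells and of host cells could not be separated by sequence. For every group 500000 cells had been implanted in the mammary fat pad of female Balb/c mice aged 6 to 8 weeks, and 250 μg of antibody per mouse was given at intervals of 3 days until endpoint. The EMT6-P group held 3 tumors of the parental line in mice given isotype control, and the EMT6-PTR group held 3 tumors of a treatment-resistant variant (EMT6 PDR in the labels) in mice given antibody against PD-L1, an immune checkpoint ligand. A single metastasis of the resistant variant under the same antibody (EMT6-PTR met) gave values but no test. The sources used here do not say whether the 3 samples of a group came from separate mice, and the study counts its replicates as technical where it gives no other word, so p-values measure the spread between these samples only, which may be technical. Variant and antibody differed together between the groups and cannot be told apart, and the variant was selected from tumors that had regrown under treatment. Per the study, the parental line was itself recovered from tumors of mice given control antibody. Libraries held 20430110 to 25213472 estimated counts, and 3 counts, the upper limit that a count of 0 allows, corresponded to 0.117 to 0.167 CPM, the count per 1000000 after scaling each library by its upper quartile. This limit covers counting error only.

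EMT6-PTR replicate 3 stood apart from the other tumors in this family and in markers of other cell types. Its summed level of 6 carcinoma and epithelial markers was 611 CPM against 2519 to 2728 in EMT6-P, with Krt8, a simple epithelial keratin, at 505 CPM against 1755 to 1898. Of these markers 4 lay below every EMT6-P tumor in it, while Epcam (8.83 CPM) and Krt5 (1.13 CPM) lay within the EMT6-P range. All 7 smooth muscle and pericyte markers lay below every EMT6-P value in it, with a sum of 118 against 670 to 886 CPM, Acta2 at 54.2 CPM and Cnn1 at 0. EMT6-PTR replicate 1 held 4115 CPM of 8 skeletal muscle markers, where EMT6-P tumors held 12.2 to 637 and EMT6-PTR replicates 2 and 3 held 8.74 and 3.99. The metastasis held 8632 CPM of 7 lung markers, which summed to 4.25 to 6.14 in EMT6-P. Of the 6 carcinoma and epithelial markers 2 lay above every EMT6-P tumor in the metastasis and 3 below. The higher ones were Epcam (52.2 CPM against 6.48 to 10.0) and Cdh1 (138 against 5.98 to 7.97). Of the 7 smooth muscle and pericyte markers 3 lay above and 4 below every EMT6-P tumor there. In bulk tissue fewer cells of a type and less RNA per cell cannot be told apart, and the same holds for more cells and more RNA per cell. Fold changes of members and medians of lists are given below with and without EMT6-PTR replicate 3.

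The promoter sequences are shown first, beginning with Bgn, the only member that was lowest rather than highest in EMT6-PTR replicate 3. A link between these sequences and the levels was not tested. Windows of 250 bases before the annotated start were available for 8 of the 10 genes in the RefSeq set used here (GRCm38.p6). That set held no window for Dcn or Lum, and 2 for Epyc. Shown are Bgn at chrX:73483351-73483600, Omd at chr13:49582212-49582461, Ogn at chr13:49607765-49608014 and Fmod at chr1:134037004-134037253, all on the plus strand, with any match to the searched motifs in capitals.
Bgn promoter: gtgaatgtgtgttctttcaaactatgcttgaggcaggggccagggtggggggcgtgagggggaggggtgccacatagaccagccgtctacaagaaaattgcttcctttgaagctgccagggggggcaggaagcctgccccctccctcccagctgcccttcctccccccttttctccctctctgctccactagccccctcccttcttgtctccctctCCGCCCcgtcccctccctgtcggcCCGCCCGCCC
Omd promoter: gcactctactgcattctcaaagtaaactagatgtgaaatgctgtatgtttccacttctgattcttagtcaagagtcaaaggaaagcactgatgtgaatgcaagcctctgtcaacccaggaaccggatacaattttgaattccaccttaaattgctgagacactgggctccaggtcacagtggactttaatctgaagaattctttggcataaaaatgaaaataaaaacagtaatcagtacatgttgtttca
Ogn promoter: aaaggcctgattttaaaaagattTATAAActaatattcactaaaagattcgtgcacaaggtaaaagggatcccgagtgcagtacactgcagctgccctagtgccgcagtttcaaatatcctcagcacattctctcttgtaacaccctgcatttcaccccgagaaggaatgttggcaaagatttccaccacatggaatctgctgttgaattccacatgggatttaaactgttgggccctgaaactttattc
Fmod promoter: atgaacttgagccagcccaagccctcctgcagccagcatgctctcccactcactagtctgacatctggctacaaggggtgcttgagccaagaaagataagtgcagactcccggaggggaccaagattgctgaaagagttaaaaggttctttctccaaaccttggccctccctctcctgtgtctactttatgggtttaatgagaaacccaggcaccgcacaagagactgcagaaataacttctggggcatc

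The letters searched were TATAAA on the gene's own strand, and on both strands CCAAT (the CCAAT box), GGGCGG (the GC box), TGANTCA (the AP-1 motif) and TTCNNNGAA (the STAT motif), with overlapping matches counted. Of 32851 RefSeq windows of the same length, 7.59% held TATAAA, 33.8% held a CCAAT box, 32.7% a GC box, 6.75% an AP-1 and 7.02% a STAT motif. The Bgn window had 3 matches to the GC box within 34 bases of the start, and its GC content was 64.4% against a median of 52.4% over all windows. The Omd window had a GC content of 38.4% and the Fmod window of 51.2%, and neither held any of these motifs. TATAAA occurred in Ogn and in Aspn, at 227 and 207 bases before the start, and CCAAT in Prelp, Kera and Aspn. These matches describe the letters of the windows and do not show binding.

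Biglycan was the leading member of the family in parental tumors. On the scale of CPM per kilobase of merged exons, which allows levels of different genes to be compared, Bgn stood at 72.5 ± 14.1 (SD, n = 3), followed by Ogn at 21.2 ± 3.45, Lum at 15.5 ± 9.44 and Dcn at 7.79 ± 2.04. Prelp (4.82 ± 3.49), Aspn (4.78 ± 2.90), Fmod (1.80 ± 1.20) and Omd (1.27 ± 0.733) came next, and Kera and Epyc were at or near 0. Bgn lay above Ogn and Omd above Kera in every pairing of the 3 EMT6-P tumors, whereas all other neighbours in this order overlapped. Bgn made up 54.1% to 59.4% of the summed level per kilobase of the 10 genes in EMT6-P, 62.1% in EMT6-PTR replicate 1 and 42.2% in EMT6-PTR replicate 2.

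EMT6-PTR replicate 3 had another order. Ogn (592 CPM per kilobase) and Dcn (573) led, Lum (210.4), Omd (150.3), Aspn (104), Prelp (77.6) and Fmod (77.4) followed, and Bgn (21.8) lay under all 7 of them, making up 1.19% of the family. The metastasis had the same leading pair, with Ogn at 245 and Dcn at 152 CPM per kilobase, but Bgn kept the next place at 51.0 and 8.89% of the family. The ratio of Dcn to Bgn per kilobase was 0.098 to 0.115 in EMT6-P, 0.0909 and 0.191 in EMT6-PTR replicates 1 and 2, 26.3 in EMT6-PTR replicate 3 and 2.97 in the metastasis. With the longest transcript in place of the merged exons these ratios were 0.0533 to 0.0626, 0.0494, 0.104, 14.3 and 1.61 in the same order of libraries.

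**Figure D1:**
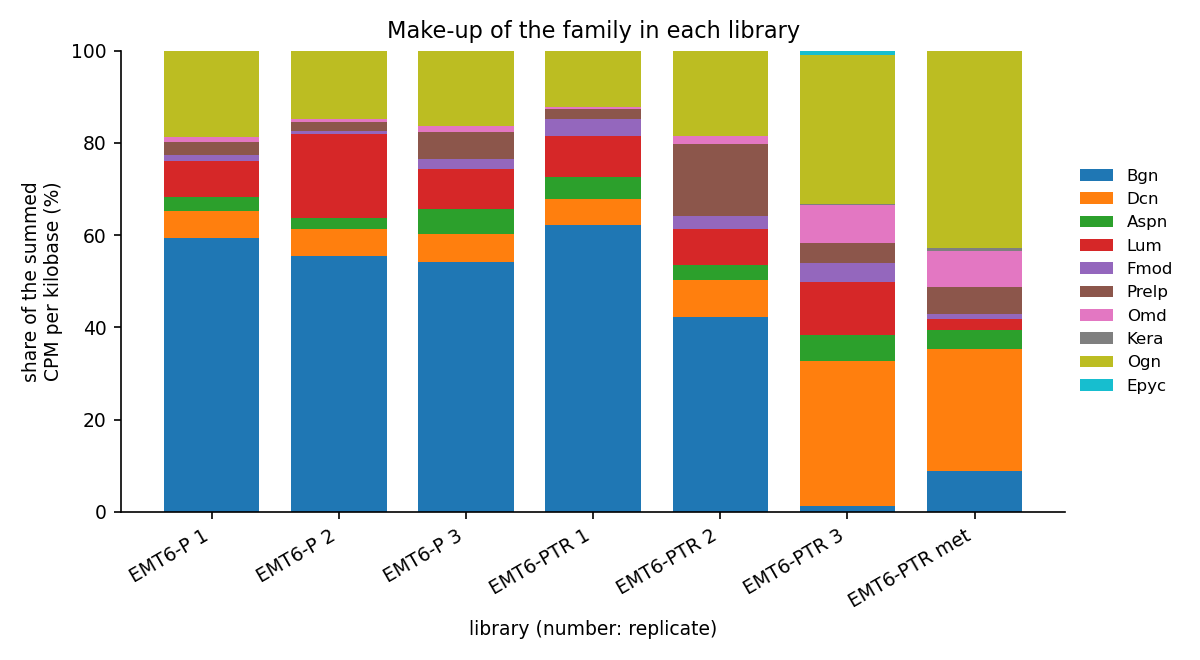
Stacked bars give, for each of the 7 libraries, the share in percent that each of the 10 genes takes of the family's summed CPM per kilobase of merged exons. Bgn is the widest band in the EMT6-P tumors and in EMT6-PTR replicates 1 and 2, while Dcn and Ogn together make up 63.8% in EMT6-PTR replicate 3 and 69.1% in the metastasis.

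The family as a whole summed to 462, 672 and 718 CPM in the EMT6-P tumors and to 543, 994 and 6678 CPM in the EMT6-PTR tumors, with 2166 CPM in the metastasis. EMT6-PTR replicate 1 therefore lay inside the EMT6-P range, replicate 2 above it and replicate 3 at 10.8 times the EMT6-P mean. The genes took 0.0463% to 0.0738% of all counts in EMT6-P and 0.678% in EMT6-PTR replicate 3.

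Of the 10 genes, 8 passed the filter on low counts, each with at least 30 counts in every library, and Kera and Epyc did not. None of the 8 passed an adjusted p of 0.05 in edgeR's quasi-likelihood test, as did none of the 15645 genes tested (0%). At an unadjusted p under 0.05 there were 6 members and 1786 genes in all. The fitted level was at least 2-fold higher in EMT6-PTR for 7 of 8 members, against 6.27% of all genes tested, and the median log2 fold change was 3.19 over the members and 0.03 over all genes. Without EMT6-PTR replicate 3 the count was 2 of 8, Fmod and Prelp, and the median 0.52. Over all 15941 genes tested in that fit, 786 were at least 2-fold higher and the median was 0.01. As the family was chosen with this contrast known, nothing is read from these shares.

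Of the class I genes, decorin, which binds collagen fibrils and TGFβ, had the highest CPM of the family in EMT6-PTR replicate 3. Dcn was at 32.2, 49.1 and 55.2 CPM in EMT6-P, at 36.0, 104 and 3345 CPM in EMT6-PTR and at 885 CPM in the metastasis. EMT6-PTR replicate 1 lay within the EMT6-P range, replicate 2 at 2.29 times and replicate 3 at 73.6 times the EMT6-P mean, so the groups overlapped. Dcn had a fitted log2 fold change of 4.67 (SE 1.69, edgeR adjusted p = 0.427), and 0.62 (SE 0.45, adjusted p = 0.463) without EMT6-PTR replicate 3.

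Biglycan, the closest relative of decorin, did not share its high level in EMT6-PTR replicate 3. Bgn was at 344, 482 and 501 CPM in EMT6-P, at 414, 570.3 and 133 CPM in EMT6-PTR and at 311 CPM in the metastasis. EMT6-PTR replicate 3 was the lowest of the 7 libraries at 0.3 times the EMT6-P mean, and EMT6-PTR replicate 2 the highest. The log2 fold change was -0.25 (SE 0.49, edgeR adjusted p = 0.852) and turned to 0.15 (SE 0.21) without EMT6-PTR replicate 3. Asporin, a class I member that binds collagen and TGFβ and lacks the glycosaminoglycan chains of the other members of its class, was at 6.92, 7.71 and 19.1 CPM in EMT6-P, 12.8, 17.5 and 244 CPM in EMT6-PTR and 56.2 CPM in the metastasis. Aspn therefore overlapped between the groups, with a log2 fold change of 3.02 (SE 1.22, edgeR adjusted p = 0.434) and of 0.43 (SE 0.46) without EMT6-PTR replicate 3.

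**Figure D2:**
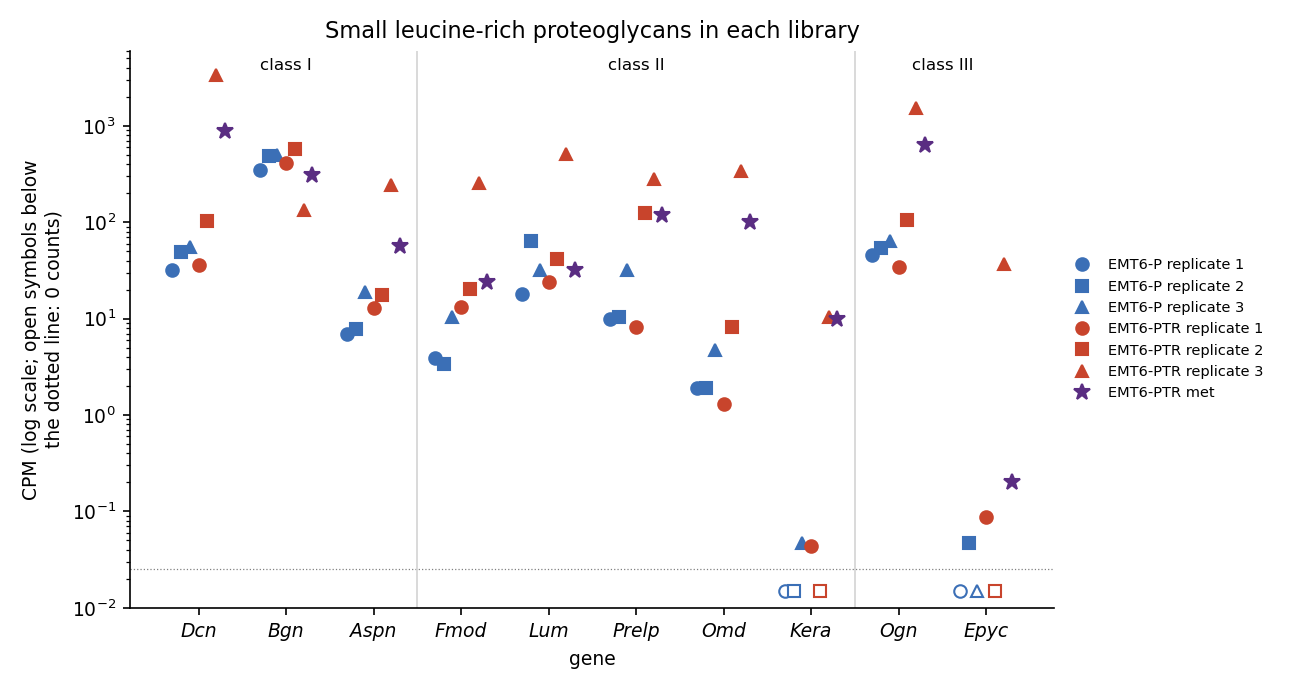
Points give the CPM of each gene in each library on a log axis, in class order, with EMT6-P in blue, EMT6-PTR in red, the metastasis as a purple star and counts of 0 as open symbols below the dotted line. EMT6-PTR replicate 3 (red triangles) is the highest library for 9 of the 10 genes and the lowest for Bgn.

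Fibromodulin, a class II keratan sulfate proteoglycan that takes part in collagen fibril assembly and cross-linking, was the one gene whose groups did not overlap (9.52% of all genes tested lay higher in every EMT6-PTR than in every EMT6-P tumor). Fmod was at 3.90, 3.41 and 10.5 CPM in EMT6-P, at 13.2, 20.4 and 256 CPM in EMT6-PTR and at 24.0 CPM in the metastasis. EMT6-PTR replicate 1 was 1.25 times the highest EMT6-P tumor, replicate 2 1.94 times and replicate 3 24.3 times. The log2 fold change was 4.02 (SE 1.28, edgeR adjusted p = 0.423), and 1.49 (SE 0.51, adjusted p = 0.197) without EMT6-PTR replicate 3. The number of non-overlapping genes was 5 without EMT6-PTR replicate 1, which added Dcn, Ogn, Prelp and Omd. It was 2 without EMT6-P replicate 3, which added Aspn, and 2 without EMT6-PTR replicate 2, which added Epyc on 2 counts in EMT6-PTR replicate 1. The share of all genes was not computed for these omissions. With fewer tumors non-overlap is easier to reach for any gene, so nothing is read from these counts.

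Lumican, a fibril-spacing proteoglycan best known from the cornea, was high in a single library. Lum was at 18.2, 63.4 and 32.2 CPM in EMT6-P, at 23.7, 41.7 and 515 CPM in EMT6-PTR and at 31.9 CPM in the metastasis. All libraries but EMT6-PTR replicate 3 lay within the EMT6-P range, and that library lay at 13.6 times the EMT6-P mean. The log2 fold change of 2.35 (SE 1.20, edgeR adjusted p = 0.480) turned to -0.22 (SE 0.52) without it.

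Prelp, which binds both collagen and heparan sulfate and is placed near basement membranes, was the member with the largest multiple in EMT6-PTR replicate 2. Prelp was at 9.89, 10.4 and 32.0 CPM in EMT6-P, at 8.12, 126 and 281 CPM in EMT6-PTR and at 118 CPM in the metastasis. EMT6-PTR replicate 2 thus held 7.25 times and replicate 3 16.1 times the EMT6-P mean, while replicate 1 lay under every EMT6-P tumor. Its log2 fold change was 2.99 (SE 1.16, edgeR adjusted p = 0.432), and 1.94 (SE 1.05, adjusted p = 0.344) without EMT6-PTR replicate 3.

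Osteomodulin, a keratan sulfate proteoglycan of bone and tooth matrix, had the largest multiple of the 8 tested members in EMT6-PTR replicate 3. Omd was at 1.90, 1.92 and 4.76 CPM in EMT6-P, at 1.31, 8.24 and 338 CPM in EMT6-PTR and at 101 CPM in the metastasis. EMT6-PTR replicate 3 held 118 times and the metastasis 35.2 times the EMT6-P mean, whereas EMT6-PTR replicate 1 was the lowest library. Over all 6 tumors the log2 fold change was 5.34 (SE 1.98, edgeR adjusted p = 0.427), and 0.73 (SE 0.79) without EMT6-PTR replicate 3. The 7 bone genes summed to 70.2, 120 and 121 CPM in EMT6-PTR and 93.2 CPM in the metastasis against 63.3 to 76.9 in EMT6-P. Phex, an endopeptidase of osteoblasts and osteocytes, was at 57.0 CPM in EMT6-PTR replicate 3 and 14.4 CPM in the metastasis, against 0.66 to 1.68 in EMT6-P, and Alpl, the tissue-nonspecific alkaline phosphatase, was at 57.0, 13.4 and 53.4 CPM in EMT6-PTR replicates 2 and 3 and the metastasis, against 1.12 to 5.09. The osteocalcin gene Bglap was at 1.76 CPM in EMT6-PTR replicate 3 against 0 to 0.424 in EMT6-P, and the osteoblast factor Sp7 at 0.352 CPM (9 counts) against 0 to 0.0472. The transcription factor Runx2 (48.5 CPM against 57.8 to 73.2) and the matrix gene Dmp1 (0.156, 4 counts, against 0.566 to 0.794) lay below every EMT6-P tumor in EMT6-PTR replicate 3. The matrix gene Ibsp, with 1 count there against 4, 1 and 2 counts in EMT6-P, was too low to compare. The part of bone cells or bone genes in the level of Omd was not tested. Of that list 4 genes were tested, with a median log2 fold change of 1.39, and of -0.08 without EMT6-PTR replicate 3.

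Keratocan, a class II member known as a marker of corneal keratocytes, was almost absent from 5 libraries. Kera had 0, 0 and 1 counts in EMT6-P and 1, 0 and 270 counts in EMT6-PTR, with 251 counts in the metastasis. EMT6-PTR replicate 3 (10.5 CPM) and the metastasis (10.0 CPM) were thus alike in it, and all other libraries were under the limit of 3 counts. As Kera did not pass the filter it was not tested.

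Of the class III genes, osteoglycin, also called mimecan, is a small proteoglycan of connective tissue and bone matrix. Ogn was at 45.7, 53.8 and 63.4 CPM in EMT6-P, at 34.0, 105 and 1519.7 CPM in EMT6-PTR and at 629 CPM in the metastasis. EMT6-PTR replicate 1 lay under and replicate 2 above every EMT6-P tumor, and replicate 3 held 28.0 times the EMT6-P mean. In the fit Ogn had a log2 fold change of 3.35 (SE 1.34, edgeR adjusted p = 0.433), and 0.36 (SE 0.44) without EMT6-PTR replicate 3. Epiphycan, a proteoglycan of growth plate cartilage, had 0, 1 and 0 counts in EMT6-P, 2, 0 and 939 counts in EMT6-PTR and 5 counts in the metastasis. In contrast to Kera, Epyc (36.7 CPM) was therefore seen above the limit of 3 counts in EMT6-PTR replicate 3 and, at 0.2 CPM, only narrowly in the metastasis.

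**Figure D3:**
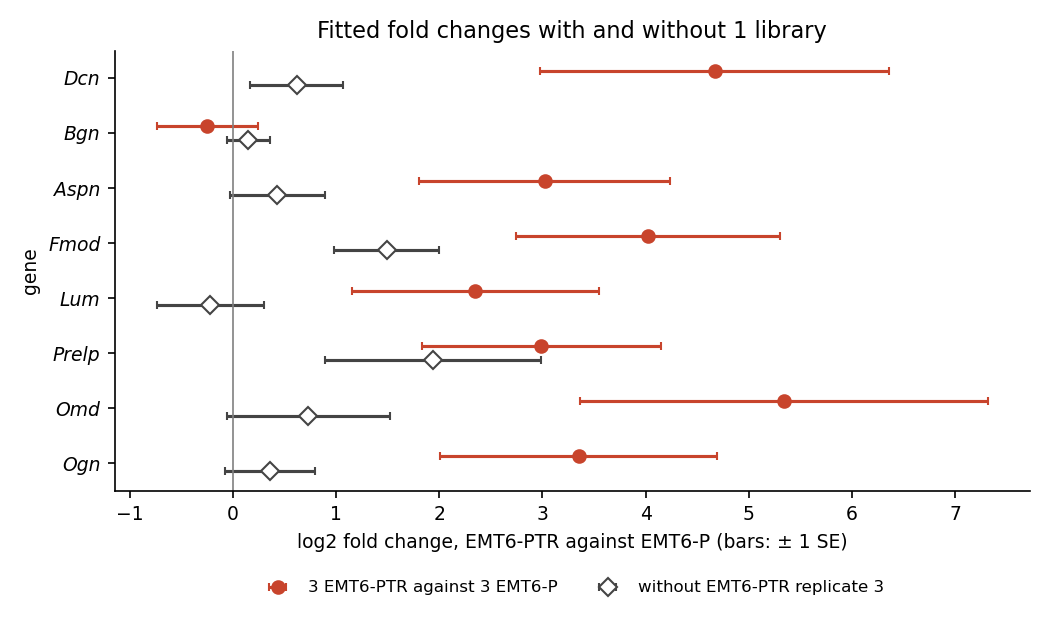
Points give the log2 fold change of EMT6-PTR against EMT6-P for the 8 genes tested, from edgeR with bars of 1 SE, over all 6 tumors (red) and without EMT6-PTR replicate 3 (open diamonds). The median over the genes is 3.19 with and 0.52 without that tumor, and Bgn and Lum change sign.

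Read library by library, the higher levels were carried mainly by EMT6-PTR replicate 3. In this tumor 7 of 8 members reached at least 4 times the EMT6-P mean (3.02% of all genes tested), and 7 of 8 lay above every EMT6-P tumor (39.8% of all genes). In EMT6-PTR replicate 2 the latter count was 6 of 8 (33.8% of all genes), with Lum and Aspn inside the EMT6-P range, and in EMT6-PTR replicate 1 it was 1 of 8 (32.6%), Fmod. The metastasis had 6 of 8 members above every EMT6-P tumor (39.8% of all genes) and the same 6 at 4 times the EMT6-P mean or more (6.44% of all genes). These 6 were Dcn, Aspn, Fmod, Prelp, Omd and Ogn, at 4.04 times (Fmod) to 35.2 times (Omd) the EMT6-P mean. Lum, at 0.84 times, was the member that was high in EMT6-PTR replicate 3 and not in the metastasis.

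Members also varied among the parental tumors, on a smaller scale. EMT6-P replicate 3 was the highest of its group for 7 of the 8 tested members, all but Lum. The highest EMT6-P tumor exceeded the lowest by 1.39 times for Ogn, 1.46 times for Bgn and 1.71 times for Dcn, but by 3.23 times for Prelp and 3.48 times for Lum. Over the 7 libraries the Pearson r of log2 CPM (prior count of 2) was 0.638 to 0.996 for the 21 pairs without Bgn and -0.817 to -0.515 for the 7 pairs with it. Without EMT6-PTR replicate 3 and the metastasis, over 5 libraries, the pairs with Bgn had an r of 0.567 to 0.916 and the other pairs of -0.051 to 0.979. The negative r of Bgn thus rested on those 2 libraries, and each pair shares its libraries and their depth.

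The genes nearest to single members in this measure over 7 libraries were Foxp4 for Dcn (r = 0.998), Klrb1b for Bgn (0.986), Cc2d1b for Lum (0.989), Ypel2 for Fmod (0.997), Wls for Prelp (0.995) and Rcn3 for Aspn (0.994). Matn2, a matrix adaptor protein, was nearest to both Ogn (0.997) and Omd (0.996). Outside the family, 394 genes had an r of at least 0.95 with Dcn, 381 with Ogn, 318 with Omd and 209 with Aspn. For Fmod, Prelp, Lum and Bgn there were 91, 52, 48 and 36 such genes. Nearest to the mean of the 8 standardized members were Pik3r3 (0.995), Zfp503 (0.995), Lgr4 (0.993), Ecm2 (0.992) and Rnf207 (0.992), and 202 genes had an r of at least 0.95 with it. Likeness in pattern did not mean likeness in size, as Foxp4 was at 76.5 CPM in EMT6-PTR replicate 3 and at 46.3 CPM on average in EMT6-P. Ecm2 was at 10.9 against 2.18 CPM in the same libraries.

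All members but Bgn lie in clusters with other members. Prelp and Fmod lie within 138 kb on chromosome 1, Dcn, Lum, Kera and Epyc within 203 kb on chromosome 10, and Aspn, Omd and Ogn within 80.1 kb on chromosome 13, whereas Bgn is on the X chromosome (73483602 to 73495933, GRCm38). The leucine-rich repeat genes Optc and Ecm2 stand beside these clusters. Optc, the class III gene opticin next to Prelp, was at 0.654 to 0.926 CPM in EMT6-P and 4.34 CPM in EMT6-PTR replicate 3, and Ecm2, next to Aspn, at 1.56 to 2.88 and 10.9 CPM. The nearest tested genes on the remaining sides were close to or below the EMT6-P mean in this tumor, at log2 differences of 0.13 for Btg1, -0.08 for Atp2b1, -0.13 for Nol8 and -0.54 for Btg2. Cenpp, a centromere gene on the opposite strand that spans Aspn, Omd and Ogn, was lower, with a log2 difference of -2.39. The libraries were stranded, but whether the counting used the strand is not given in the sources used here, so reads of Cenpp and of these 3 members may not be fully separated.

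**Figure D4:**
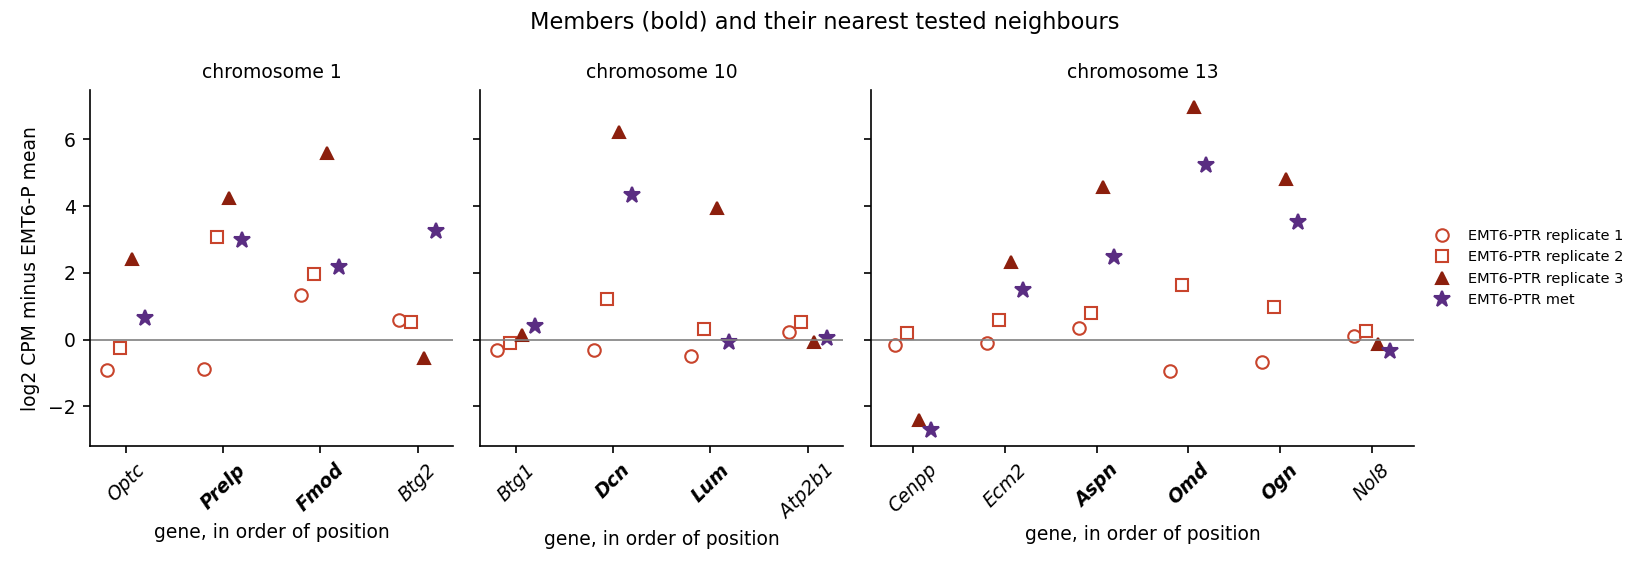
Points give log2 CPM (prior count of 2) minus the EMT6-P mean for the 3 EMT6-PTR tumors and the metastasis. Shown are the tested members other than Bgn (bold) and the nearest tested genes at any distance, in order along each chromosome and not to scale. In EMT6-PTR replicate 3 (filled triangles) the members shown lie at 3.94 (Lum) to 6.98 (Omd), Optc and Ecm2 at 2.42 and 2.32, and Btg1, Atp2b1 and Nol8 near 0. Bgn, not shown, was at -1.72 in that tumor.

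Genes related to the family, and those of its sugar chains, partners and receptors, are given by list. Of the 9 related leucine-rich repeat genes 5 were tested, with a median log2 fold change of 0.24. Without EMT6-PTR replicate 3, where 6 were tested, the median was also 0.24. Ecm2 had a log2 fold change of 1.3 (SE 0.67), Podnl1, the podocan relative, of -0.75 (SE 0.52) and Tsku, the secreted signaling modulator tsukushi, of 0.24 (SE 0.18). None of these passed edgeR's adjusted threshold, and neither did any gene of the lists named in the next paragraphs.

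The enzymes that build the sugar chains of these proteins had log2 fold changes centred on 0. Of 26 genes of chondroitin and dermatan sulfate synthesis 24 were tested, 11 with a positive and 13 with a negative log2 fold change and a median of 0 (-0.08 without EMT6-PTR replicate 3). The smallest unadjusted p-values belonged to Slc26a2, a sulfate transporter (0.58, SE 0.18), Chst12, a chondroitin sulfotransferase (-0.44, SE 0.14), and Chpf2, a chondroitin polymerizing factor (0.59, SE 0.22), each a log2 fold change with an edgeR adjusted p of 0.421 to 0.427. Of 10 genes of keratan sulfate synthesis 8 were tested, with a median of -0.06 (0.07 without EMT6-PTR replicate 3), led by Chst2 (-0.49, SE 0.28), B4galt4 (0.72, SE 0.44) and B3gnt2 (0.70, SE 0.44). The summed level of the chondroitin list was 925 CPM in EMT6-PTR replicate 3 against 904 to 1046 in EMT6-P, and that of the keratan list 406 against 562 to 617.

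The collagens that these proteins bind differed among themselves. Of 14 fibrillar collagens and partners 13 were tested, 10 with a positive log2 fold change, a median of 0.67 and 2 at least 2-fold higher, and the median was 0.24 without EMT6-PTR replicate 3. Col11a1, a chain that nucleates thin fibrils, was at 6.58, 12.1 and 32.5 CPM in EMT6-P, at 20.6, 196 and 765 CPM in EMT6-PTR and at 126 CPM in the metastasis (log2 fold change 4.26, SE 1.31, edgeR adjusted p = 0.421), and its log2 fold change was 2.66 (SE 0.99) without EMT6-PTR replicate 3. Col3a1, a major chain of loose stroma, was at 734 to 1165 CPM in EMT6-P and at 951, 1998 and 9088 CPM in EMT6-PTR (2.15, SE 0.81, and 0.70, SE 0.34, without EMT6-PTR replicate 3). Col12a1, which decorates fibrils, had a log2 fold change of 0.82 (SE 0.41). In EMT6-PTR replicate 3 only part of the list was high, as 7 of 13 genes lay above and 5 below every EMT6-P tumor, with Col1a1 at 2755 CPM inside the EMT6-P range of 2427 to 3192 and Col5a2 at 48.4 CPM against 223 to 296.

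Of 16 genes for processing and cleavage of these proteins 15 were tested, with a median log2 fold change of 0.09 (0.10 without EMT6-PTR replicate 3). Adamts5 and Adamts1, proteases of the matrix proteoglycans, had log2 fold changes of 2.31 (SE 0.72) and 1.35 (SE 0.42), and Pcolce2, a procollagen processing enhancer, of -1.07 (SE 0.33), all with an edgeR adjusted p of 0.421. Without EMT6-PTR replicate 3 these 3 genes had log2 fold changes of 1.24 (SE 0.43), 0.75 (SE 0.21) and -0.78 (SE 0.18). Of 15 bound growth factors and complement genes 14 were tested, with a median of -0.02 (0.13 without EMT6-PTR replicate 3), led by Igf1 (2.37, SE 0.67), Ccn2, a matricellular protein induced by TGFβ (2.18, SE 0.75), and Tgfb3 (0.51, SE 0.19). Ccn2 had a log2 fold change of 0.84 (SE 0.28) without EMT6-PTR replicate 3, and Igf1 of 1.89 (SE 0.64). All 16 receptors were tested, with a median of 0.19 with and without EMT6-PTR replicate 3, led by Lrp1, an endocytic receptor for decorin (0.61, SE 0.24), Tlr4 (0.41, SE 0.17) and Igf1r (0.31, SE 0.13).

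Fibroblast markers were high in part in the tumor with the highest family level. The 14 fibroblast markers summed to 5839.9 to 7856 CPM in EMT6-P and to 6703, 8891 and 14613 CPM in EMT6-PTR, with a median log2 fold change of 0.24 and 5 of 14 at least 2-fold higher (0.19 and 1 of 14 without EMT6-PTR replicate 3). Pdgfra, the receptor that marks many fibroblasts, was at 31.2 to 52.1 CPM in EMT6-P and at 32.6, 61.7 and 345 CPM in EMT6-PTR, with 229.6 CPM in the metastasis. In EMT6-PTR replicate 3 as many fibroblast markers lay below every EMT6-P tumor as above, 6 of 14 each, with Postn at 5715 CPM against 438 to 919.5, Pdgfrb at 562 against 108 to 214, Thy1 at 6.68 CPM against 63.2 to 114 and Mfap5 at 2.23 against 20.4 to 34.4. Pi16, a marker of adventitial fibroblasts, had the smallest unadjusted p of the list (2.69, SE 0.64, edgeR adjusted p = 0.421), with 3.08 to 4.81 CPM in EMT6-P, 7.68, 19.7 and 44.5 CPM in EMT6-PTR and 31.6 CPM in the metastasis. Its log2 fold change was 1.87 (SE 0.42) without EMT6-PTR replicate 3. Fap, the fibroblast activation protein, had a log2 fold change of 1.66 (SE 0.71), and of 0.54 (SE 0.41) without that tumor.

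Genes of cartilage and tendon, tissues in which several members are abundant, were also measured. Of 13 genes of this list 8 were tested, with a median log2 fold change of 0.78 and 4 at least 2-fold higher (0.71 and 3 without EMT6-PTR replicate 3), and the list summed to 229 CPM in EMT6-PTR replicate 3 against 208 to 331 in EMT6-P. Of the 8 tested genes 3 lay above and 4 below every EMT6-P tumor in EMT6-PTR replicate 3. The lower ones were Scx, Sox9 (35.8 CPM against 46.9 to 83.7), Thbs4 (0.781 against 2.73 to 7.01) and Egr1 (84.3 against 106 to 193). In that tumor the cartilage link protein gene Hapln1 was at 8.56 CPM against at most 0.0487 in EMT6-P, the tendon factor Scx at 11.4 CPM against 34.5 to 51.5, and Tnmd, Mkx and Acan, at most 0.28 CPM in any library, at 0. Comp, a cartilage oligomeric matrix protein that binds collagen, was at 0.0934 to 0.519 CPM in EMT6-P and at 0.785, 2.17 and 22.0 CPM in EMT6-PTR (log2 fold change 4.69, SE 1.41, edgeR adjusted p = 0.421, and 2.18, SE 0.72, without EMT6-PTR replicate 3). Cilp (1.69, SE 0.48) and Matn4 (1.63, SE 0.52) also had EMT6-PTR values above the EMT6-P range in all 3 tumors. In this list 3 of the 8 tested genes lay above and 1 below the EMT6-P range in all 3 EMT6-PTR tumors. The lower one was Scx, at 27.0, 26.1 and 11.4 CPM. Over all 15645 genes tested, 1490 (9.52%) lay higher and 1845 lower in this way.

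**Figure D5:**
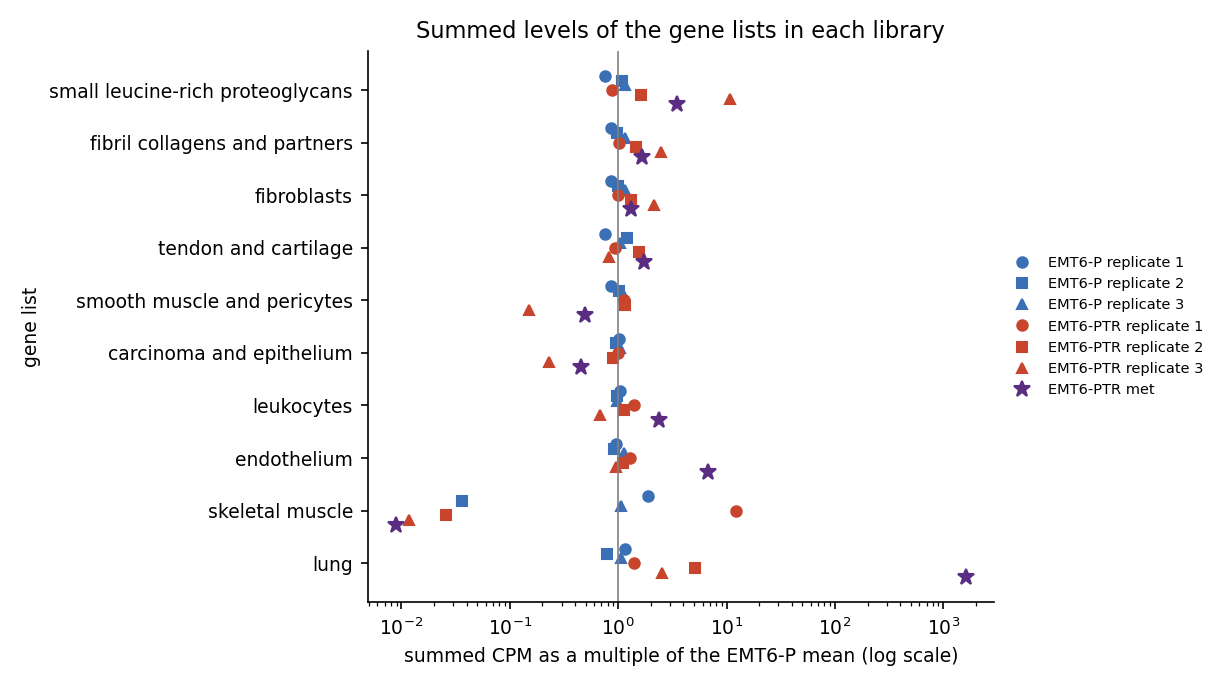
Points give the summed CPM of each gene list in each library as a multiple of the EMT6-P mean, on a log axis, with EMT6-P in blue, EMT6-PTR in red and the metastasis as a purple star. The family stands at 10.8 times the EMT6-P mean in EMT6-PTR replicate 3 and 3.51 times in the metastasis. The sums of the carcinoma and smooth muscle lists lie below the EMT6-P mean in both. In the metastasis, however, 2 of 6 carcinoma and 3 of 7 smooth muscle markers lay above every EMT6-P tumor.

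Leukocyte markers summed to 252 CPM in EMT6-PTR replicate 3 and 891 in the metastasis, against 362 to 385 in EMT6-P, endothelial markers to 121 and 858 against 117 to 143, and adipocyte markers to 21.8 and 253 against 21.6 to 36.3. In the metastasis S100a8 alone held 585 CPM and Lpl alone 238 CPM, while Adipoq, Plin1, Lep and Pck1 had 0 counts. Of 5 tested leukocyte genes 3 lay above and 2 below every EMT6-P tumor in the metastasis. The lower ones were Adgre1 (19.4 CPM against 43.4 to 53.7) and Csf1r (186 against 246 to 259). Skin markers summed to 14.9 CPM in EMT6-P replicate 3, against 0.536 and 0.374 CPM in EMT6-P replicates 1 and 2. In EMT6-PTR and the metastasis skin markers summed to at most 3 CPM. The 7 lung genes summed to 7.46, 27.1 and 13.6 CPM in EMT6-PTR, against 4.25 to 6.14 in EMT6-P. The gene with the smallest unadjusted p of that list was Ager, a receptor of alveolar cells, at 3.14, 26.1 and 12.0 CPM in EMT6-PTR against 1.45 to 1.79 in EMT6-P (log2 fold change 3.08, SE 0.74, edgeR adjusted p = 0.421, and 3.16, SE 0.80, without EMT6-PTR replicate 3). In EMT6-PTR replicate 3 the ciliated cell factor Foxj1 was at 1.41 CPM, Sftpb at 0.195 CPM, and Sftpc, Sftpa1, Sftpd and Scgb1a1 at 0. EMT6-PTR replicate 1, which held the most skeletal muscle RNA, had 1 member above the EMT6-P range. The part of the carcinoma, smooth muscle, fibroblast, lung, skin and skeletal muscle content in the levels of the family was not tested.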

How the data were processed

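RNA of 7 bulk tissue samples was prepared as stranded polyadenylated libraries. Per the labels and the study's methods, the authors checked reads with FastQC 0.11.5, aligned them with STAR 2.6.0a to GRCm38 with the GENCODE M16 annotation and deposited expected counts per gene estimated with RSEM 1.3.1, not normalized. These estimated counts were rounded to whole numbers, and 3 of the 10 members had a fractional value in any library. Gene symbols, positions and exon lengths came from GENCODE M21 of the same assembly, and promoter windows from RefSeq.

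The 3 EMT6-PTR and 3 EMT6-P tumors were compared with the quasi-likelihood test of edgeR 4.0.16 (R 4.3.3) after filterByExpr and upper-quartile scaling, with Benjamini-Hochberg adjustment over 15645 genes and a threshold of 0.05. The SE is the log2 fold change divided by the square root of F. CPM values use upper-quartile factors over all 7 libraries. Whether samples of a group are independent is not given in the sources used here. The procedure was tested on simulated counts that had the same dispersion for every gene and no outlying tumor. That test therefore does not cover data in which 1 tumor stands far from the others. DESeq2 1.42.0, limma 3.58.1 (voom) and other filters, scalings and leave-one-out fits were alternatives.

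The members and gene lists were chosen with earlier results of these data known. Named are all members, up to 3 tested genes with the smallest p of each list, the gene nearest to each member in Pearson r and 5 for the family mean. For members within 500 kb of each other, the tested genes between them and the nearest on either side, at any distance, are also named. Further genes (Acan, Adipoq, Bglap, Cdh1, Col1a1, Col5a2, Csf1r, Dmp1, Egr1, Epcam, Hapln1, Ibsp, Lep, Mfap5, Mkx, Pck1, Pdgfrb, Plin1, Postn, S100a8, Scgb1a1, Scx, Sftpa1, Sftpb, Sftpc, Sftpd, Sox9, Sp7, Thbs4, Thy1 and Tnmd) were named after their values were seen.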

Additional observations from a re-analysis of the deposited data

How the results depend on the processing

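No member passed edgeR's adjusted threshold in the main fit or under any of the 13 alternatives, which included DESeq2, although DESeq2 returned a p for only 3 of the 8 members tested and called 281 other genes (138 higher), where edgeR and limma-voom called 0. EMT6-PTR replicate 3 decided most values: without it 2 members in place of 7 were at least 2-fold higher, the median log2 fold change was 0.52 in place of 3.19, and the log2 fold changes of Bgn (0.15) and Lum (-0.22) had the opposite sign. Leaving out each tumor in turn gave a median of 0.52 to 3.72 and 2 to 7 members at least 2-fold higher, with log2 fold changes of -0.69 to 0.15 for Bgn and of -0.22 to 2.94 for Lum. The number of members whose groups did not overlap ranged from 1 to 5 under these omissions, for which the share of all genes was not computed. With the replicate number as a replicate block the median was 1.96 and with limma-voom 2.05, with 7 members at least 2-fold higher and 0 called in both. The numbers do not pair the tumors in the labels, and the deviations of same-numbered tumors had an r of 0.26, 0.25 and 0.04. With no filter on low counts all 10 members were fitted, 9 of them at least 2-fold higher with a median of 3.71. In that fit 6209 of all 28451 genes were at least 2-fold higher, with a median of 0.1. No other alternative changed the sign of a member. Groups of 3 tumors, of which 1 stood far from the others, limited the precision of every fold change, and Kera and Epyc could not be compared at 0 to 2 counts in most libraries. The cause of the differences between settings was not tested beyond the fact that each omission removes 1 tumor.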

Other observations

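Members of the family differed in how far the metastasis approached EMT6-PTR replicate 3, the tumor with the highest levels. On the CPM scale the metastasis held 95.1% of that tumor's level for Kera, 42.2% for Prelp, 41.4% for Ogn, 29.8% for Omd, 26.4% for Dcn, 23.1% for Aspn, 9.37% for Fmod, 6.18% for Lum and 0.545% for Epyc. Dcn, Lum, Kera and Epyc, neighbours within 203 kb on chromosome 10, therefore spanned this whole range. For Bgn the metastasis held 2.35 times the level of EMT6-PTR replicate 3. Both libraries are single samples, so these are values with no test.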
